A study of Mus musculus with 10 samples.

Results

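Integrins are the cell surface receptors that bind epithelial cells to the matrix around them. The genes described here are 10 subunit genes carried by epithelial cells: the beta subunits Itgb1, Itgb4, Itgb5, Itgb6 and Itgb8 and the alpha subunits Itgav, Itga2, Itga3, Itga5 and Itga6. They were taken by name, as table rows whose platform annotation gives that symbol and no other, and each of the 10 had 1 such transcript cluster (a set of probes along a transcript, summarised to 1 value). They are 10 of the 19938 genes measured. The samples were total RNA of mouse pancreas on Affymetrix Mouse Gene 1.0 ST arrays, 5 of controls and 5 of DKO mice, all of mixed strain background. The labels give the DKO genotype as PDX1Cre,Mst1-/-,Mst2L/L, and the control genotype as control alone. MST1 and MST2 are the kinases that open the Hippo cascade. The Mst1 allele is null in all cells, whereas the floxed Mst2 allele is lost where Cre is made from the Pdx1 promoter, which drives it in progenitors of the pancreas. Organ cells that Cre does not reach would lack MST1 alone, and no age is given. The labels do not say whether each array is a separate animal, and the p-values then measure sample-to-sample spread, which may be technical.

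Each integrin is a dimer of 1 alpha and 1 beta subunit, and the pairing sets what it binds. Itgav pairs with Itgb1, Itgb5, Itgb6 or Itgb8 to bind proteins that carry an RGD peptide, such as vitronectin, fibronectin and the latent form of TGF-beta. Itgb1 pairs with Itga2 to bind collagen, with Itga5 to bind fibronectin and with Itga3 or Itga6 to bind laminin, while the Itga6 and Itgb4 dimer anchors hemidesmosomes to the basement membrane. In the cell, talin and kindlin bind the beta tail and link it to actin, and YAP and TAZ, the coactivators that the Hippo kinases restrain, respond to and feed back on such adhesions.

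Levels are log2 intensities as deposited, between 2.79 and 13.94 over all clusters, so no value is 0, and array medians lay between 7.12 and 7.15. A level of 1 gene cannot be set against that of another, because each has its own probes. In arrays without expression of Xist or of the Y-linked genes, those genes lay between 3.99 and 5.75. The lowest value of the 10 members in any array, 6.22 for Itgb6, lay above that range. That range comes from the probes of 4 sex-linked genes, so it sets no background level for Itgb6. Xist was high in 3 control and 2 DKO arrays. Stk4, the gene of MST1, lay inside that range in all 10 arrays (5.01 to 5.23), so its cluster gave no check of the labels, and Stk3, the gene of MST2, was not analysed here. DKO replicate 1 stood apart in hepatocyte markers, with a mean of 12.06 over 6 genes against 7.12 to 8.65 in the other 9 arrays. Means of acinar markers (11.05 to 11.99), islet markers (11.17 to 11.50) and duct markers (9.17 to 9.98) lay well above the unexpressed range in all arrays.

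Of the 10 integrin genes, Itgb6 and Itga3 rose in DKO pancreas and none fell. Over all genes tested, 2.08% were called higher and 0.366% lower, at an adjusted p of 0.05 by limma with Benjamini-Hochberg adjustment over the 19938 genes. Estimates of 9 of the 10 lay above 0, against 47.6% of all genes, and the median log2 change of the members was 0.16 against -0.006 over all genes. The control and DKO arrays did not overlap in 4 members, Itgb6, Itga3, Itgb1 and Itgav, each higher in DKO, against 3.52% of all genes higher without overlap. The members were picked with earlier results of these arrays known, so these counts describe them and carry no test. In whole pancreas, more RNA per cell and more cells of a type cannot be told apart.

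**Figure D1:**
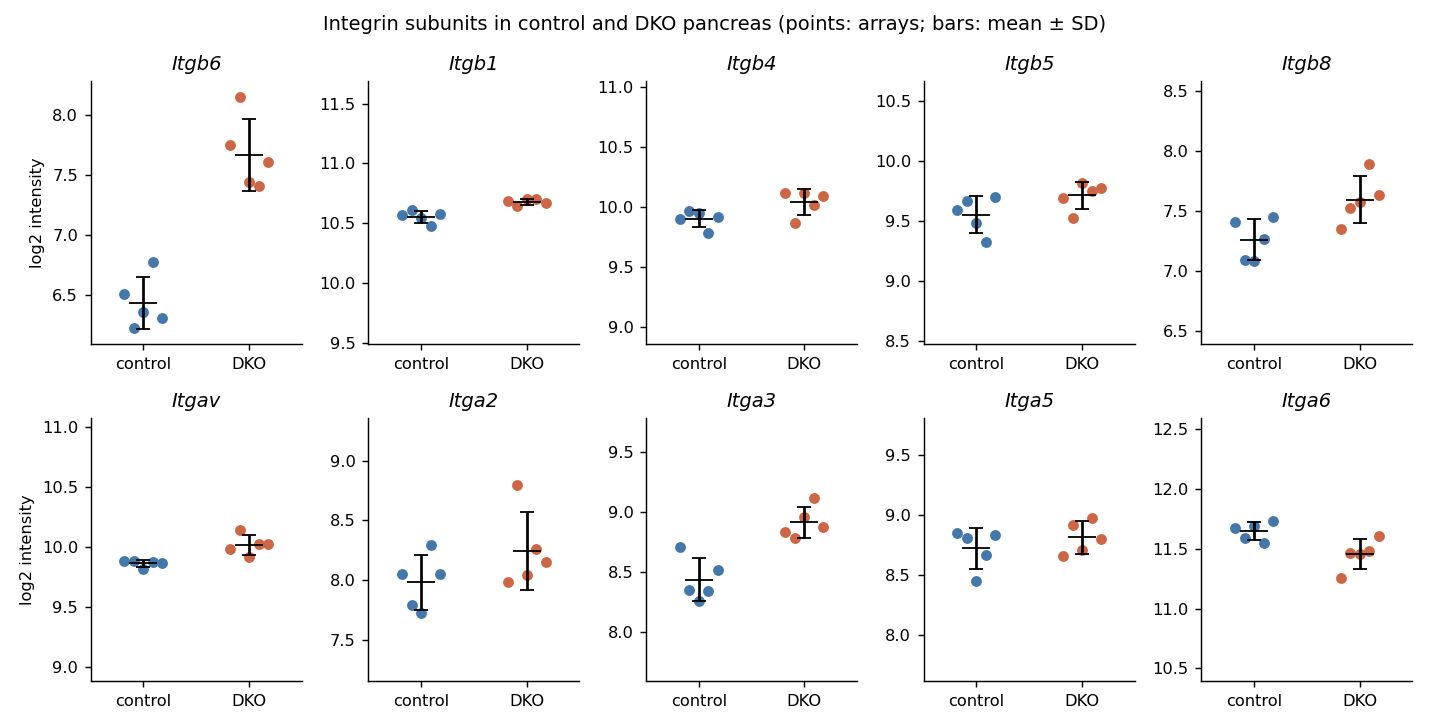
Log2 intensity (vertical axis, each panel spanning 2.2 log2 units) of the 10 integrin genes in 5 control arrays (blue) and 5 DKO arrays (orange), with the group mean and SD in black. The gap between the groups was widest for Itgb6, with 6.22 to 6.77 in control and 7.41 to 8.15 in DKO, and Itga6 was the member whose DKO mean lay below the control mean.

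Itgb6, the beta subunit that pairs with Itgav alone and takes part in freeing TGF-beta from its latent form, read 6.51, 6.22, 6.35, 6.77 and 6.31 in the 5 control replicates, in their order of number. It read 7.75, 8.15, 7.44, 7.41 and 7.61 in the 5 DKO replicates. The lowest DKO array thus lay above the highest control array, with DKO replicate 2 and control replicate 4 the highest of their groups. Group means were 6.43 ± 0.22 and 7.67 ± 0.30 (SD, n = 5 each). Per array, the mean of 6 gut and stomach markers lay between 6.73 and 6.86 in control, above the Itgb6 control mean. Those markers have their own probes and were not shown to be unexpressed, so they set no background level for Itgb6. Whether Itgb6 stood above background in control was not tested, so the fold change below describes the array signal only. The increase was 2.36-fold (log2 change 1.24 ± 0.15 SE, 95% interval 0.92 to 1.56, limma adjusted p = 0.00139). An exact two-sided permutation test over the 252 splits of the arrays gave p = 0.00794 (unadjusted), the smallest that this design allows. Any gene whose groups do not overlap receives this p, as 958 of the 19938 genes would, so it adds nothing to the lack of overlap. With DKO replicate 1, where hepatocyte markers were high, left out, Itgb6 was higher by 1.22 (adjusted p = 0.00431).

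Itgb6 has 2 annotated starts in RefSeq (GRCm38.p6), and the 250 bases before each are shown because the array cannot say from which of them the added transcript came. The upstream one, on the minus strand at chr2:60722604-60722853, holds 52% G and C, and the downstream one, on the minus strand at chr2:60673694-60673943, 38%. No capitals are used, since neither motif searched was found in them.
Itgb6 upstream start: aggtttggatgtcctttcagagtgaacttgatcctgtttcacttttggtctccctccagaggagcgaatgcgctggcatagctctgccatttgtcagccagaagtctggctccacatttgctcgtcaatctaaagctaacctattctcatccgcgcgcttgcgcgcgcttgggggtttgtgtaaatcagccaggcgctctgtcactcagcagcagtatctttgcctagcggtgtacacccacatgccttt
Itgb6 downstream start: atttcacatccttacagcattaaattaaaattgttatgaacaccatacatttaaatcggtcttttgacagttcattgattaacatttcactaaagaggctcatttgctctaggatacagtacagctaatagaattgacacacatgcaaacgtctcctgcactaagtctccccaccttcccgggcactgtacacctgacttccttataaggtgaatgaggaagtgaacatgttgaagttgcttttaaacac

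Windows from 250 bases before to 50 after a start were matched by symbol for 8 of the 10 members, all but Itga6 and Itgb4, which gave 10 windows. The letters GGAATG, which TEAD factors (the DNA-binding partners of YAP and TAZ) recognise, were searched on both strands, as were the AP-1 letters TGANTCA, where N is any base. The TEAD letters stood in 1 window, that of Itgb1, 7 bases before the start, and in 14.7% of all 32851 windows. The AP-1 letters stood in 1 of the 2 Itga3 windows, 12 bases after the start, and in 7.81% of all windows. Neither stood in a window of Itgb6, which says only that these letters are not within that stretch.

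Itgav, the alpha subunit that Itgb6 needs, showed a much smaller difference. It measured 9.88, 9.88, 9.82, 9.87 and 9.86 in control and 9.99, 10.15, 9.92, 10.02 and 10.03 in DKO. The groups did not overlap, yet the log2 change of 0.16 ± 0.05 (SE, 1.11-fold) did not pass over all genes (adjusted p = 0.159). Control arrays were tightly grouped (SD 0.03, against 0.08 in DKO), and DKO replicate 2, the highest in Itgb6, was the highest here as well.

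The other beta partners of Itgav did not pass the test. Itgb8, which also binds latent TGF-beta, measured 7.40, 7.09, 7.08, 7.27 and 7.45 in control and 7.35, 7.53, 7.58, 7.89 and 7.64 in DKO. In 4 of 5 DKO arrays it lay above all controls, DKO replicate 1 being the exception, and its log2 change was 0.34 ± 0.11 (SE, adjusted p = 0.156). Itgb5, a receptor subunit for vitronectin, measured 9.59, 9.67, 9.48, 9.32 and 9.70 in control and 9.69, 9.53, 9.82, 9.75 and 9.78 in DKO. The groups overlapped, and its log2 change was 0.16 ± 0.08 (SE, adjusted p = 0.399).

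Itgb1 is the common beta subunit of the collagen, fibronectin and laminin receptors. It varied least among the DKO arrays of all members, at 10.69, 10.64, 10.70, 10.70 and 10.67, against 10.57, 10.61, 10.55, 10.47 and 10.58 in control. The groups did not overlap, but the difference was small at 0.13 ± 0.04 (SE, 95% interval 0.03 to 0.22) and did not pass (adjusted p = 0.187). Its collagen-binding partner Itga2 spread widely, from 7.72 to 8.29 in control (median 8.05) and from 7.98 to 8.79 in DKO (median 8.15). All DKO arrays except replicate 2 lay inside the control range, and the log2 change of 0.26 ± 0.16 (SE, adjusted p = 0.468) was 0.13 without that array. Itga5, the fibronectin-binding partner, measured 8.45 to 8.85 in control (median 8.81) and 8.66 to 8.98 in DKO (median 8.80), a log2 change of 0.09 ± 0.09 (SE, adjusted p = 0.667).

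The laminin-binding alpha subunits differed in the sign of their estimates. Itga3 measured 8.71, 8.35, 8.26, 8.34 and 8.52 in control and 8.83, 8.78, 8.96, 9.12 and 8.88 in DKO. All DKO arrays lay above all controls, narrowly for control replicate 1, and the rise was 1.39-fold (log2 change 0.48 ± 0.09 SE, 95% interval 0.27 to 0.68, adjusted p = 0.0230). The call ended without any of control replicates 2, 3 and 4 or DKO replicates 3, 4 and 5 (highest adjusted p = 0.0695, without control replicate 2), with unmoderated variance (0.0693) and without control replicate 2 and DKO replicate 4 together (0.136). In those fits the change stayed between 0.40 and 0.49.

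Itga6 measured 11.68, 11.59, 11.69, 11.55 and 11.74 in control and 11.26, 11.47, 11.45, 11.49 and 11.61 in DKO. In 4 of 5 DKO arrays it lay below all controls. Its log2 change of -0.19 ± 0.07 (SE, 95% interval -0.34 to -0.04) did not pass over all genes (adjusted p = 0.204). DKO replicate 1, the array with high hepatocyte markers and the lowest mean of acinar markers (11.05 over 5 genes, against 11.21 to 11.99 in the others), was the lowest in Itga6, and without it the change was -0.14. The part of the acinar or hepatocyte markers in this difference was not tested. Itgb4, whose long tail binds plectin in hemidesmosomes, measured 9.90, 9.96, 9.95, 9.79 and 9.91 in control and 10.12, 9.86, 10.11, 10.02 and 10.09 in DKO. DKO replicate 2 lay inside the control range and the other 4 above it, with a log2 change of 0.14 ± 0.06 (SE, adjusted p = 0.323).

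**Figure D2:**
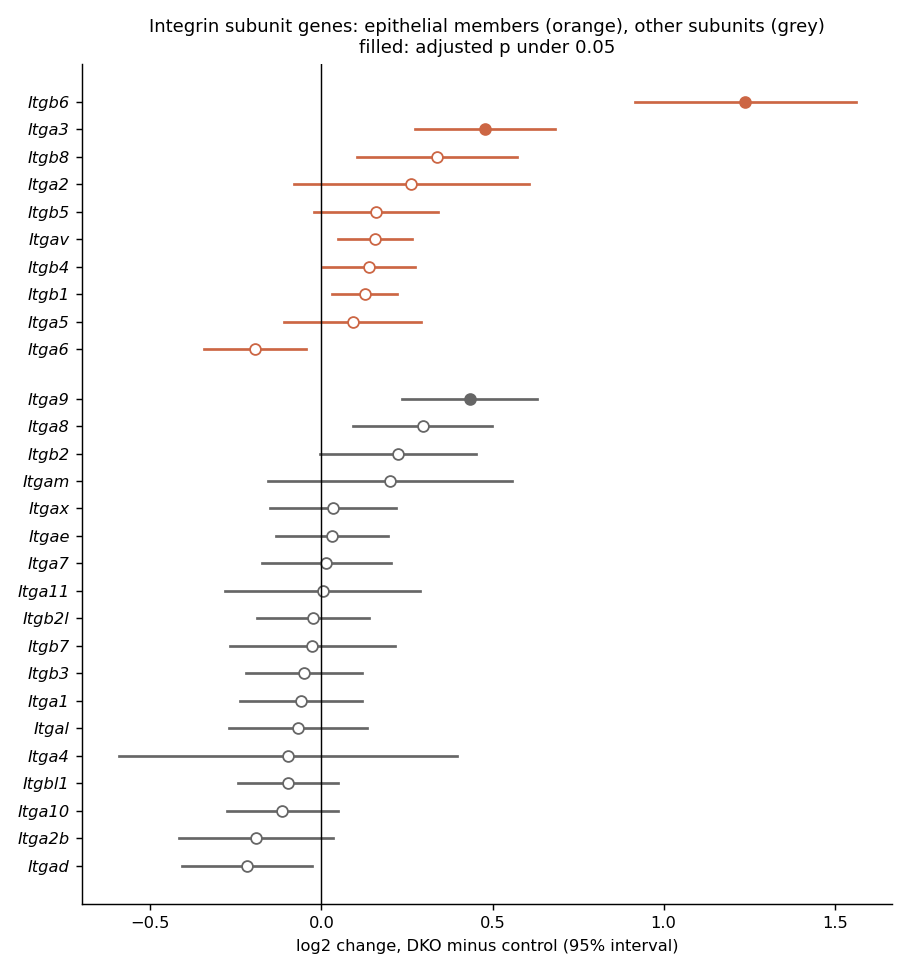
Log2 change (DKO minus control, horizontal axis) with its 95% interval from the limma fit for the 10 epithelial integrin genes (orange) and 18 further integrin genes (grey), filled where the adjusted p lies under 0.05. Itgb6 stands apart at 1.24, Itga3 (0.48) and Itga9 (0.43) are the other filled points, and Itga6 is the epithelial member left of 0, at -0.19.

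Because subunits work in pairs, the next comparison asked whether the subunits of a known dimer changed unequally. In each array the log2 level of the alpha subunit was subtracted from that of the beta subunit, and the group difference was given an exact two-sided permutation p over 252 splits, with p-values adjusted over the 9 dimers. A scaling that shifts a whole array cancels in this measure. The change of Itgb6 exceeded that of Itgav by 1.08 ± 0.14 (SE, p = 0.00794, adjusted p = 0.0238 by exact permutation), with all 5 DKO arrays above all control arrays. That adjusted p was reached only because both dimers of Itga6, described below, shared the smallest p that 252 splits allow. A single dimer of the 9 at that p would not have passed. The other 3 beta partners of Itgav that were tested did not pass. The differences were 0.18 ± 0.12 for Itgb8 (exact adjusted p = 0.300), 0.004 ± 0.109 for Itgb5 (exact adjusted p = 1) and -0.03 ± 0.05 for Itgb1 (exact adjusted p = 0.796).

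The array signals of both beta partners of Itga6 changed unequally with that of Itga6. The change of Itgb1 exceeded that of Itga6 by 0.32 ± 0.07 (SE), and that of Itgb4 exceeded it by 0.33 ± 0.09 (SE), each with an exact permutation p of 0.00794 (adjusted p = 0.0238) and with 5 of 5 DKO arrays above all controls. These share the Itga6 values and are not independent. Without DKO replicate 1 they were 0.27 and 0.26 (adjusted p = 0.0476 each, exact permutation). That is the smallest adjusted p that 3 equally extreme dimers can reach with those arrays, so it restates the lack of overlap. Itga3 went the other way: the change of Itgb1 minus that of Itga3 was -0.35 ± 0.09 (SE, exact adjusted p = 0.0536), which did not pass, although it did without control replicate 1 (-0.42, exact adjusted p = 0.0357). For Itga2 and Itga5 the differences from Itgb1 were -0.14 ± 0.19 and 0.04 ± 0.09 (SE, exact adjusted p = 0.786 and 0.857). The 3 calls ended without control replicate 2 and DKO replicate 4 together, where the exact adjusted p was 0.0857 for each and the differences were 1.09, 0.35 and 0.38. With those arrays 3 equally extreme dimers cannot reach a smaller adjusted p, so this loss says nothing about stability.

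**Figure D3:**
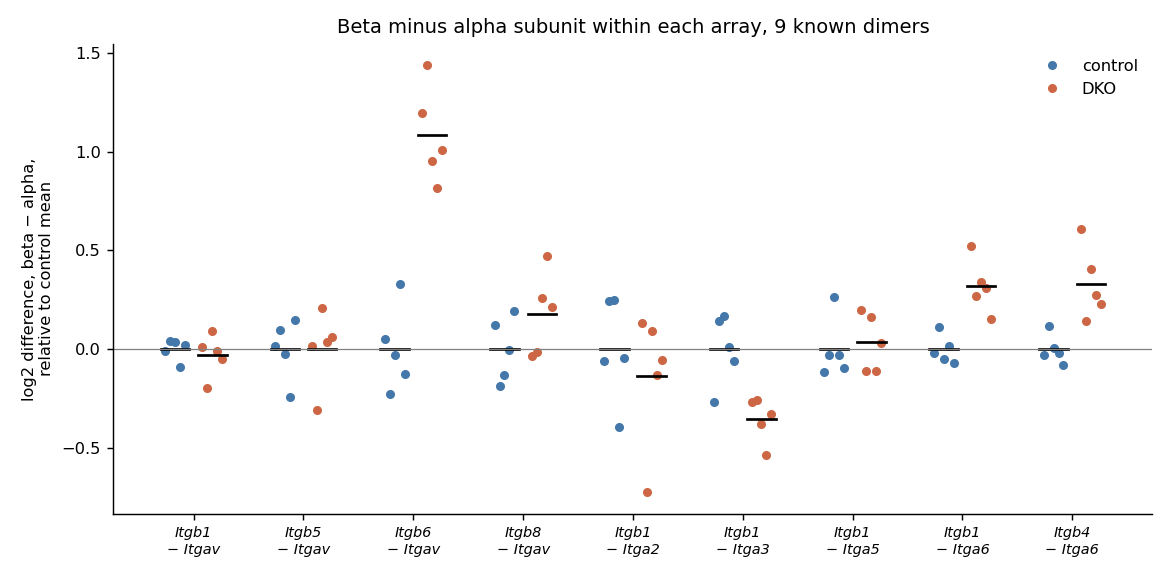
Beta minus alpha subunit (log2 difference within each array, set to 0 at the control mean, vertical axis) for 9 known integrin dimers, with 5 control arrays in blue, 5 DKO arrays in orange and group means as black lines. Itgb6 over Itgav stood 1.08 higher in DKO, both Itga6 dimers stood 0.32 and 0.33 higher, and the other 6 dimers overlapped between groups, with 3 of 5 DKO arrays below all controls in Itgb1 over Itga3.

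Beyond the epithelial members, 18 further integrin genes were measured, among them the leukocyte subunits (Itgal, Itgam, Itgax, Itgad, Itgb2, Itgb7), platelet Itga2b and Itgb3, and mesenchymal Itga1, Itga8 and Itga11. Of these 1 rose and none fell (2.08% and 0.366% over all genes), with a median log2 change of -0.03. The 1 was Itga9, an alpha subunit that pairs with Itgb1 and binds tenascin and osteopontin, which went from 8.25 to 8.69 (log2 change 0.43 ± 0.09 SE, adjusted p = 0.0309). The groups overlapped, and the call ended after subtraction of array medians (0.0620), with unmoderated variance (0.0817), with Xist as a covariate (0.0524) and without any of control replicates 1 to 4 or DKO replicates 1, 3, 4 and 5 (highest 0.0852, without control replicate 3). Itgb2, the leukocyte beta subunit, had a log2 change of 0.22 ± 0.10 (SE, adjusted p = 0.345). Itgb3, the remaining beta partner of Itgav, differed by -0.05 ± 0.08 (SE, adjusted p = 0.778).

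Of 24 measured genes of integrin ligands 4 rose and none fell (2.08% and 0.366% over all genes). Their median log2 change was 0.10. Ccn1, a matricellular protein that binds Itgav dimers and is also a YAP target, rose by 1.43 ± 0.13 (SE, adjusted p = 0.000336). Mfge8, a milk fat globule protein with an RGD peptide, rose by 0.45 ± 0.06 (SE, adjusted p = 0.00423). The laminin chains Lama5 and Lamb1, which the dimers of Itga3 and Itga6 bind, rose by 0.71 (adjusted p = 0.00878) and 0.40 (adjusted p = 0.0285). The call of Lamb1 ended after subtraction of array medians (0.0678), with unmoderated variance (0.0727) and without any of control replicates 2, 3 and 4 or DKO replicates 3, 4 and 5 (highest 0.0742, without control replicate 3). Vtn, the gene of vitronectin, had a log2 change of -0.47 ± 0.13 (SE) and Tnc, the gene of tenascin C, of 0.57 ± 0.17 (SE), and neither passed (adjusted p = 0.0924 and 0.125; both were chosen after their values were seen). The count was 2 without control replicate 2 and DKO replicate 4 together, as Lama5 (adjusted p = 0.0630) and Lamb1 (0.147) were lost.

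The Itgav dimers of Itgb6 and Itgb8 act on latent TGF-beta. Of 9 genes of TGF-beta ligands and the proteins that keep them latent 3 rose and none fell (2.08% and 0.366% over all genes). Their median log2 change was 0.09. The ligand genes Tgfb2 and Tgfb3 rose by 0.71 ± 0.12 and 0.67 ± 0.12 (SE, adjusted p = 0.0135 and 0.0171), and Ltbp3, which holds latent TGF-beta in the matrix, by 0.27 ± 0.06 (SE, adjusted p = 0.0326). Tgfb1, the remaining ligand gene of the list, differed by 0.09 ± 0.08 (SE, adjusted p = 0.641). The count was 1 without control replicate 2 or DKO replicate 5, and 2 without any of control replicates 1, 3 and 4 or DKO replicates 1, 3 and 4. Tgfb3 lost its call in those first fits (0.0526 and 0.0512), and Ltbp3 in all 8 of these and after subtraction of array medians (0.106). With unmoderated variance Tgfb2 (0.0547) and Tgfb3 (0.0650) were lost. Among 12 receptors, SMADs and response genes of TGF-beta 1 rose and none fell (2.08% and 0.366% over all genes). An unadjusted limma p under 0.05, in either direction, was found for 6 of the 12, against 14.8% of all genes. The 1 that rose was Pmepa1, a feedback inhibitor (log2 change 0.45 ± 0.10 SE, adjusted p = 0.0455). Its call ended under both other scalings (0.0562 and 0.0552) and with unmoderated variance (0.110). It also ended without any 1 array but DKO replicate 3 (highest 0.120, without control replicate 3). Without control replicate 2 and DKO replicate 4 together it was lost too (0.154). Smad7, induced by TGF-beta signalling, differed by -0.09 ± 0.12 (SE, adjusted p = 0.737).

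Among 29 genes of the complex that joins integrin tails to actin, 6 rose and none fell (2.08% and 0.366% over all genes). Their median log2 change was 0.09. Vcl, the gene of vinculin, which binds talin and actin under tension, rose by 0.55 ± 0.06 (SE, adjusted p = 0.000983). Tns1, a tensin of mature adhesions, rose by 0.39 ± 0.06 (SE, adjusted p = 0.00742), but its clusters disagreed, and their mean rose by 0.24 without passing (adjusted p = 0.0647). The actin crosslinkers Actn1 and Actn4 rose by 0.32 and 0.29 (adjusted p = 0.0144 and 0.0245). Actn1 was lost in 2 of 7 alternatives that were not single left-out arrays. Its highest adjusted p was 0.0979, without control replicate 2 and DKO replicate 4 together. Actn4 was lost without any of control replicates 1, 2, 3 and 5 or DKO replicates 1 and 2 (highest 0.0744, without control replicate 2). The count was 3 without any of control replicates 2 and 3 and DKO replicate 1, and between 4 and 6 without each other array. Without control replicate 2 and DKO replicate 4 together it was 1. Tln1, the gene of talin, differed by 0.09 ± 0.06 (SE, adjusted p = 0.465), and Ilk, the integrin-linked kinase, by 0.12 ± 0.05 (SE, adjusted p = 0.283). None of 10 hemidesmosome and tetraspanin genes passed by limma (4 at an unadjusted p under 0.05, against 14.8% of all genes), and 1 did without DKO replicate 3.

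**Figure D4:**
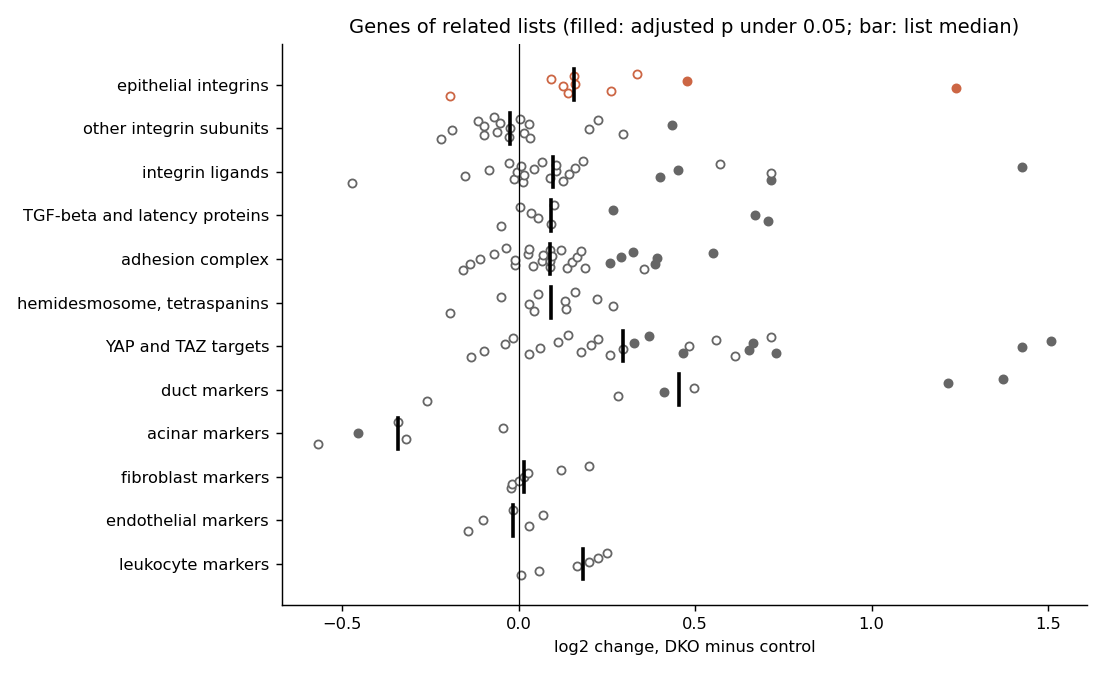
Log2 change (DKO minus control, horizontal axis) of the genes of 12 lists, each gene a point, filled where the adjusted p lies under 0.05, with the list median as a black bar. The epithelial integrins (orange) have their median at 0.16 with Itgb6 far to the right, the YAP and TAZ targets at 0.30, the duct markers at 0.45 and the acinar markers at -0.34.

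Genes of the YAP and TAZ target list and of the duct marker list were also called higher in DKO. Of 25 targets 8 rose and none fell (2.08% and 0.366% over all genes). They were led by Ccn1, Ajuba (0.73) and Ankrd1 (1.51), with the tissue factor gene F3 at 0.66. Per array the list mean was 8.49 to 8.56 in control and 8.82 to 9.01 in DKO. Of 6 duct markers measured 3 rose and none fell (2.08% and 0.366% over all genes). The 3 were the claudin Cldn4 (1.37) and the keratins Krt7 (1.22) and Krt19 (0.41). The list mean was 9.17 to 9.36 in control and 9.73 to 9.98 in DKO. Sox9, also a duct marker, had a log2 change of -0.26 ± 0.08 (SE) that did not pass (adjusted p = 0.149). Within groups the arrays ranked differently. Itgb6 was highest in control replicate 4 and DKO replicate 2. The target mean was highest in control replicate 5 and DKO replicate 1, and the duct mean in replicate 2 of each group. Among controls, replicate 2 was the lowest in Itgb6 (6.22). The part of the targets and duct markers in the Itgb6 result was not tested. Of 5 acinar markers 1 fell (0.366% over all genes), Rbpjl (-0.45, adjusted p = 0.0225). Its call ended without any of control replicates 3 and 5 and DKO replicate 4 (highest 0.0689) and with unmoderated variance (0.0664). Without control replicate 2 and DKO replicate 4 together it was lost as well (0.105). List means of acinar markers lay between 11.54 and 11.99 in control and between 11.05 and 11.62 in DKO.

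For other cell types of the organ and its surroundings, no marker passed by limma. The lists held 7 fibroblast, 4 smooth muscle, 5 endothelial, 6 leukocyte, 6 hepatocyte, 5 islet and 6 gut and stomach markers. Of these, 0, 1, 1, 1, 0, 1 and 0 had an unadjusted limma p under 0.05, in that order, against 14.8% of all genes. Fibroblast means lay between 10.60 and 10.90 in control and between 10.69 and 10.83 in DKO, and leukocyte means between 8.04 and 8.54 and between 8.04 and 8.60. Hepatocyte markers had a median log2 change of 1.07, with means between 7.29 and 8.57 in control and between 7.12 and 12.06 in DKO, where replicate 1 was the highest.

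Genes with a profile like that of Itgb6 were sought by the root mean square difference between log2 profiles over the 10 arrays, each less its own mean. The nearest was Mboat1, a lysophospholipid acyltransferase gene, at 0.148, followed by Rprm (0.192), a p53-induced cell cycle inhibitor, the epithelial keratin Krt80 (0.199), Ttc6 (0.203) and Stx19 (0.210), a syntaxin. Their log2 changes were 1.13, 1.30, 1.15, 1.46 and 1.15. The difference between groups makes most of this likeness. Within groups Mboat1 matched Itgb6 in having its highest control value in replicate 4 (8.94, against 8.31 to 8.58 in the others) and its highest DKO value in replicate 2 (9.98, closely followed by replicate 1 at 9.96).

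Nearest to Itga3 were Rhob (0.079), a small GTPase, Smarcd3 (0.082), a chromatin remodelling subunit, Hivep2 (0.083), a zinc finger protein, Pdgfc (0.088), a growth factor, and Lmna (0.097), the nuclear lamin A gene. Their log2 changes were 0.39, 0.39, 0.34, 0.52 and 0.37. Hivep2 did not pass the test (adjusted p = 0.134; 0.0482 without control replicate 1). Calls ended for Rhob without any of control replicates 2, 3 and 4 or DKO replicate 5, for Lmna without control replicate 2, 3 or 5, and for Pdgfc without any of control replicates 2, 3 and 4 or DKO replicates 3, 4 and 5 and after subtraction of array medians (0.0612). Unmoderated variance ended those of Rhob (0.0560), Pdgfc (0.0976) and Lmna (0.0537), and leaving out control replicate 2 with DKO replicate 4 those of Rhob, Smarcd3, Pdgfc and Lmna (adjusted p from 0.0962 to 0.186). DKO replicate 4 was the highest array for Itga3 and for all 5 of these genes.

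**Figure D5:**
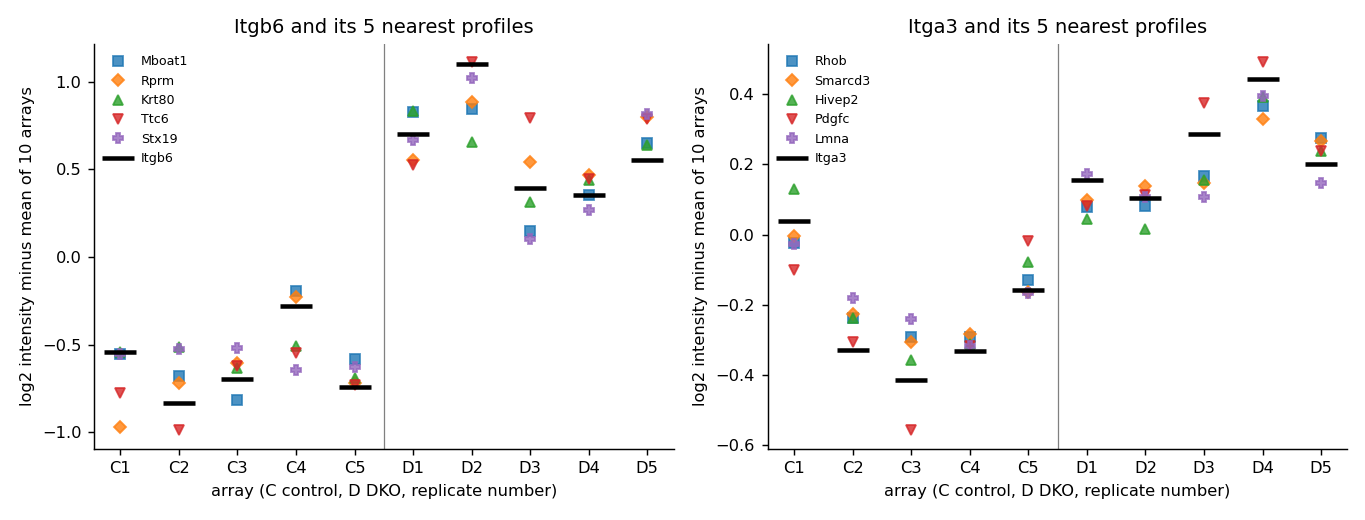
Log2 intensity less the mean of the 10 arrays (vertical axis) in control (C) and DKO (D) arrays, by replicate number, for Itgb6 and Itga3 (black bars) and the 5 genes with the smallest root mean square difference from each. Itgb6 peaks in DKO replicate 2, as do its neighbours other than Krt80, while Itga3 and its neighbours peak in DKO replicate 4.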

How the data were processed

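Total RNA of 10 mouse pancreas samples, 5 control and 5 DKO, was labelled with biotin and hybridised to 1 array each. Per the submitters' processing notes Affymetrix Expression Console, with a version and summarization method not given in the sources used here, made the values. The authors deposited log2 intensities, already on a common scale over all clusters, which were used unchanged. Over the tested genes, array medians lay between 7.55 and 7.59 in control and between 7.56 and 7.63 in DKO.

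Of 35556 clusters 21789 had 1 gene symbol, 1621 several and 12146 none. The brightest cluster over all arrays stood for each of 19938 genes. Symbols were updated through RefSeq (GRCm38.p6), where 21698 of the 21789 clusters matched.

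The comparison used limma 3.58.1 under R 4.3.3 (lmFit, then eBayes, two-sided, Benjamini-Hochberg over all genes, threshold 0.05). Adjusted p-values in the text are from this fit unless an exact test is named. The median standard error was 0.0754, and the number of arrays limits the precision. The fit was tested on simulated data. Alternatives covered scaling, filters, variance, cluster choice, left-out arrays, the replicate number as a block and Xist as a covariate. Applying them to list genes and nearest profiles was added after seeing the data.

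Named genes are the 10 members, up to 4 called genes of each list with the smallest p, the 5 nearest profiles of each called member, and Stk4 and Stk3; other names, including Vtn, Tnc, Itgb2, Itgb3, Tgfb1, Smad7, Tln1, Ilk and Sox9, were picked after values were seen. Members and lists were chosen with earlier results of these data known.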

Additional observations from a re-analysis of the deposited data

Results flagged for a closer look

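Itgav in control replicate 3, at 9.82, lay apart from the other 4 control arrays (9.86 to 9.88), by 0.711 of the group's range, against a critical value of 0.710 for Dixon's test with 5 samples. All 5 values lay within 0.07 log2 units of each other. Chance flags about 1 in 20 groups, and 20 groups of 5 arrays (10 genes in 2 groups) were examined.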

How the results depend on the processing

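Itgb6 stayed higher and past the threshold under all 21 alternatives that gave a value, with log2 changes of 1.12 to 1.32 and p-values of 0.000804 to 0.0290. These are adjusted, except that of the exact permutation test (0.00794), which keeps the same estimate. The mean of all clusters could not change the level of Itgb6, which has 1 cluster. The filter on the dimmest 50% of genes removed Itgb6 and Itgb8. No integrin gene changed direction under any alternative run. The count of integrin genes past the threshold was 2, and 1 without the dimmest 50% of genes (where Itga3 was left), with unmoderated variance, without control replicate 2 and DKO replicate 4 together and with the replicate block; without single arrays it was 1 to 2.

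Over all genes 487 were called (414 higher). The count was 298 with unmoderated variance, 151 without control replicate 2 and DKO replicate 4 together, 178 with the replicate block, and 260 to 433 without single arrays. After subtraction of array medians 374 were called, 271 of them higher, so that 72.5% of calls were higher in place of 85.0%.

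Of the dimers 3 were called, 3 to 4 without single arrays, and 0 both without control replicate 2 and DKO replicate 4 together and with the replicate block (exact sign-flip test over pairs); these designs are too small for 3 equally extreme dimers to pass, so this says nothing about stability. No pairing by replicate number was evident: deviations of same-numbered arrays correlated by -0.27, -0.20, 0.29, -0.22 and 0.21. Arrays of unlike number were not compared in this way, so pairing remains undecided. With the block Itgb6 kept its call (adjusted p = 0.0290) and Itga3 lost it (0.117).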
